A study of Mus musculus with 21 samples.

Results

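Lysosome and autophagy genes of the mouse stomach were followed across cells sorted by an Lgr5 reporter, after tamoxifen injection and in uninjected controls. The set is a fixed list of 36 genes for lysosomal enzymes and their cofactors, lysosomal membrane proteins, the proton pump, their transcription factors and the autophagy machinery. A gene's value came from the array row annotated with that gene alone, and the brightest such row was used where there was more than 1. Values were obtained for 35 of the 36 genes, out of 22180 genes tested on the array. Glb1, which encodes lysosomal beta-galactosidase, has no value here because its row names a second gene as well. Ctsl, a lysosomal cysteine protease, was higher after tamoxifen in all 3 cell populations, and Cd68, a glycoprotein of macrophage lysosomes, was higher in low and negative cells. Of the 35 genes, 9 were called higher after tamoxifen in at least 1 population and none was called lower. By population, 3, 8 and 2 of the 35 were called higher in high, low and negative cells (8.57%, 22.9% and 5.71%). Of all genes tested, 1.7%, 5.35% and 1.62% were called higher and 1.04%, 2.98% and 0.703% lower, in the same order. The share of all genes called in at least 1 population was not computed.

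The cells came from the corpus, the acid-secreting region of the stomach, and were separated by flow cytometry into Lgr5GFP high, low and negative populations. Tamoxifen mice had received 0.27 mg of tamoxifen per g of body weight 24 h before cell isolation, and each of their populations has 4 arrays. Control mice are labelled uninjected with no treatment, and each of their populations has 3 arrays, which gives 21 arrays in 6 groups. There is no vehicle group, so the drug, the injection and the sort cannot be told apart. The series' design text calls the replicates technical and places them in individual sorting runs, so p-values measure the spread between these samples. Strain, age and genotype beyond the reporter are not given in the sources used here.

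Lysosomes are acidic organelles in which proteases, lipases and glycosidases digest material delivered by endocytosis or by autophagy. In autophagy a membrane grows around part of the cytoplasm, the ubiquitin-like LC3 and GABARAP proteins are attached to that membrane, and the finished autophagosome fuses with a lysosome. Many lysosomal genes are regulated together by TFEB and TFE3, transcription factors that enter the nucleus when mTORC1 activity is low. Chief cells secrete pepsinogen from the base of the gland, and they are known for an early rise in lysosomes and autophagy when injury makes them reenter the cell cycle.

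TFEB and TFE3 bind a palindrome of 10 letters, the CLEAR element, which is CACGTG with GT before it and AC after it. The element, its core CACGTG and the antioxidant element core TGACNNNGC were searched on both strands of the promoters, from 250 bases before to 50 bases after each gene start. The promoters are RefSeq sequences of build GRCm38.p6, and they were matched for 29 of the 36 listed genes. The genes not matched were Asah1, Atp6v1h, Becn1, Ctsb, Ctsh, Map1lc3a and Npc1. CACGTG was found in the promoters of 10 of the 29 genes (34.5%), against 8.09% of 27025 genes with a promoter in the table. TGACNNNGC was found in 5 of the 29 (17.2%), against 14.0% of all genes. The full CLEAR palindrome, which contains the CACGTG core, was in none of the 29 and in 0.37% of all genes. The stretches below hold CACGTG, in capitals, and run 5′ to 3′ on the strand of the gene. They are shown for Ctsl, which was called in every tamoxifen comparison, for Ctsa, which was called between control populations, and for Lamp1, Mcoln1 and Gla, which carry the core more than once and were called in no comparison.
Ctsl: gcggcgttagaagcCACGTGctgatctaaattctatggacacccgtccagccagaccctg
Ctsa: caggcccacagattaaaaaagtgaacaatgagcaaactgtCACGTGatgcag
Lamp1: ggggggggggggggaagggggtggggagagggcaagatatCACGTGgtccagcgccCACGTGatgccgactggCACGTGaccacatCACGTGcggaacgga
Mcoln1: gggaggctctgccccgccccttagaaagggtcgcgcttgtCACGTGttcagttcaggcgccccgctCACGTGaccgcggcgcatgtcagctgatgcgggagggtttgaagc
Gla: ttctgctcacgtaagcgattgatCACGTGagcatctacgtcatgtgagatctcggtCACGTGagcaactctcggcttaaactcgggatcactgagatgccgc

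The Ctsl stretch lies at chr13:64370711-64370770 on the minus strand, and its single core begins 236 bases before the start. The Ctsa stretch lies at chr2:164833721-164833772 on the plus strand, with a core 12 bases before the start. A further Ctsa core begins at base 6 counted from the start, beyond the stretch shown. The Lamp1 stretch lies at chr8:13159060-13159160 on the plus strand and holds 4 cores, at 61, 45, 28 and 15 bases before the start. The Mcoln1 stretch lies at chr8:3500408-3500518 on the plus strand, with cores 71 and 45 bases before the start. The Gla stretch lies at chrX:134601154-134601255 on the minus strand, with cores 227 and 194 bases before the start. CACGTG was also found in the promoters of Ctsd, Atp6v0d1, Glb1, Atg5 and Atg7. Ctsd, likewise called in no comparison, had cores at 245 and 98 bases before the start. Of the 9 genes called after tamoxifen, Ctsl was the one with this core among those with a promoter in the table. TGACNNNGC was found for Ctsz, Ctsd, Map1lc3b, Hexa and Psap. A match is a stretch of letters and does not show a bound site.

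All levels are log2 signals deposited by the authors. Olfactory receptor genes served as a guide to background, and the 95th percentile of 1105 such genes was 4.25. Tfeb lay at about that level in every group, and the other 34 measured genes were above it in at least 1 group. Arrays of 1 group correlated with one another at 0.944 to 0.991 (Pearson, across genes). The Lgr5 level followed the sort, at 8.05 to 8.74 in tamoxifen high, 6.49 to 7.01 in tamoxifen low and 4.42 to 4.81 in tamoxifen negative cells, and at 8.40 to 9.15, 7.48 to 7.71 and 4.06 to 4.82 in the matching control populations. Between tamoxifen and control, Lgr5 itself was called lower in low cells (log2 difference -0.86), where the arrays did not overlap. It was not called in high or negative cells (-0.35 and 0.18). One label field of the control negative arrays says low, and their Lgr5 level lies with the negative cells. Of 7 chief cell markers, 6 were above background in every group, and so were 6 or 7 of 8 parietal cell markers. After tamoxifen, chief cell markers were lower for 1, 2 and 0 of 7, parietal cell markers for 3, 4 and 3 of 8, tuft cell markers for 0, 5 and 0 of 5 and mucous neck cell markers for 0, 2 and 3 of 4 in high, low and negative cells. Mast cell markers were lower for 0, 1 and 4 of 6 and endocrine cell markers for 0, 2 and 0 of 6 in the same order, and 1 endocrine marker was higher in negative cells. The mast cell marker lower in low cells was Kit, with means of 6.17 after tamoxifen and 7.66 in controls. In low cells 4 of the 6 mast cell differences were above 0, and 1 of the 6 markers was above background in each low group. The part of these shifts in the results below was not tested. In such sorted pools fewer cells of a type and less RNA per cell cannot be told apart.

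In Lgr5GFP high cells, 3 of the 35 genes rose after tamoxifen and none fell. They were Ctsl, the membrane protein Lamp2 and the LC3 family member Gabarapl1. Across all genes tested, 1.7% were called higher and 1.04% lower at an adjusted p under 0.05 (limma, Benjamini-Hochberg over all genes). The median log2 difference, tamoxifen minus control, was 0.20 over the 35 genes and 0.00 over all genes. Of the 35 differences 26 were above 0, beside 11126 of 22180 over all genes. Without tamoxifen high 4 the count was 9, with 8 higher and 1 lower. The count over all genes in that fit is not given here, so the change is not read as particular to the list. That fit added Asah1, Cd68, Ctsb, Ctsz and Lipa as higher, at log2 differences of 0.82, 0.87, 0.55, 0.87 and 1.19, and Gabarapl2 as lower at -0.88. With the spread estimated from the 7 high arrays alone, none of the 35 was called in the limma fit, with 7 at an unadjusted p under 0.05, and 12 genes were called in all.

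In Lgr5GFP low cells, 8 of the 35 genes rose and none fell. They were the proteases Ctsh, Ctsl, Ctss and Ctsz, the lysosomal protein progranulin (Grn), the membrane proteins Lamp2 and Cd68, and the autophagy receptor Sqstm1. Of all genes, 5.35% were called higher and 2.98% lower. The median log2 difference was 0.30 over the 35 genes and 0.01 over all genes. Of the 35 differences 24 were above 0, beside 11308 of 22180 over all genes. After cyclic loess normalization the split was 7 higher and 1 lower, since Lamp2 missed the threshold and the autophagy kinase Ulk1 was called lower. With the spread estimated from the low arrays alone, 10 of the 35 were called in the limma fit. That fit added Atp6v1h as higher (0.60, adjusted p = 0.044) and Ulk1 as lower (-0.84, adjusted p = 0.042). The count was 5, all higher, without tamoxifen low 1, tamoxifen low 2 or control low 2. Counts over all genes in these other fits are not given here, so the changes are not read as particular to the list.

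In Lgr5GFP negative cells, Ctsl and Cd68 rose and none of the 35 genes fell. Of all genes, 1.62% were called higher and 0.703% lower. The median log2 difference was 0.24 over the 35 genes and 0.00 over all genes. Of the 35 differences 26 were above 0, beside 11009 of 22180 over all genes. Ctsl was the 1 gene of the list called in all 3 populations. Each called gene in the 3 comparisons had tamoxifen and control arrays that did not overlap. Genes picked by the test tend to have separate groups, so this is no further support. Some genes that were not called did not overlap either, such as Lamp2 in negative cells and Sqstm1 in high and negative cells.

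**Figure D1:**
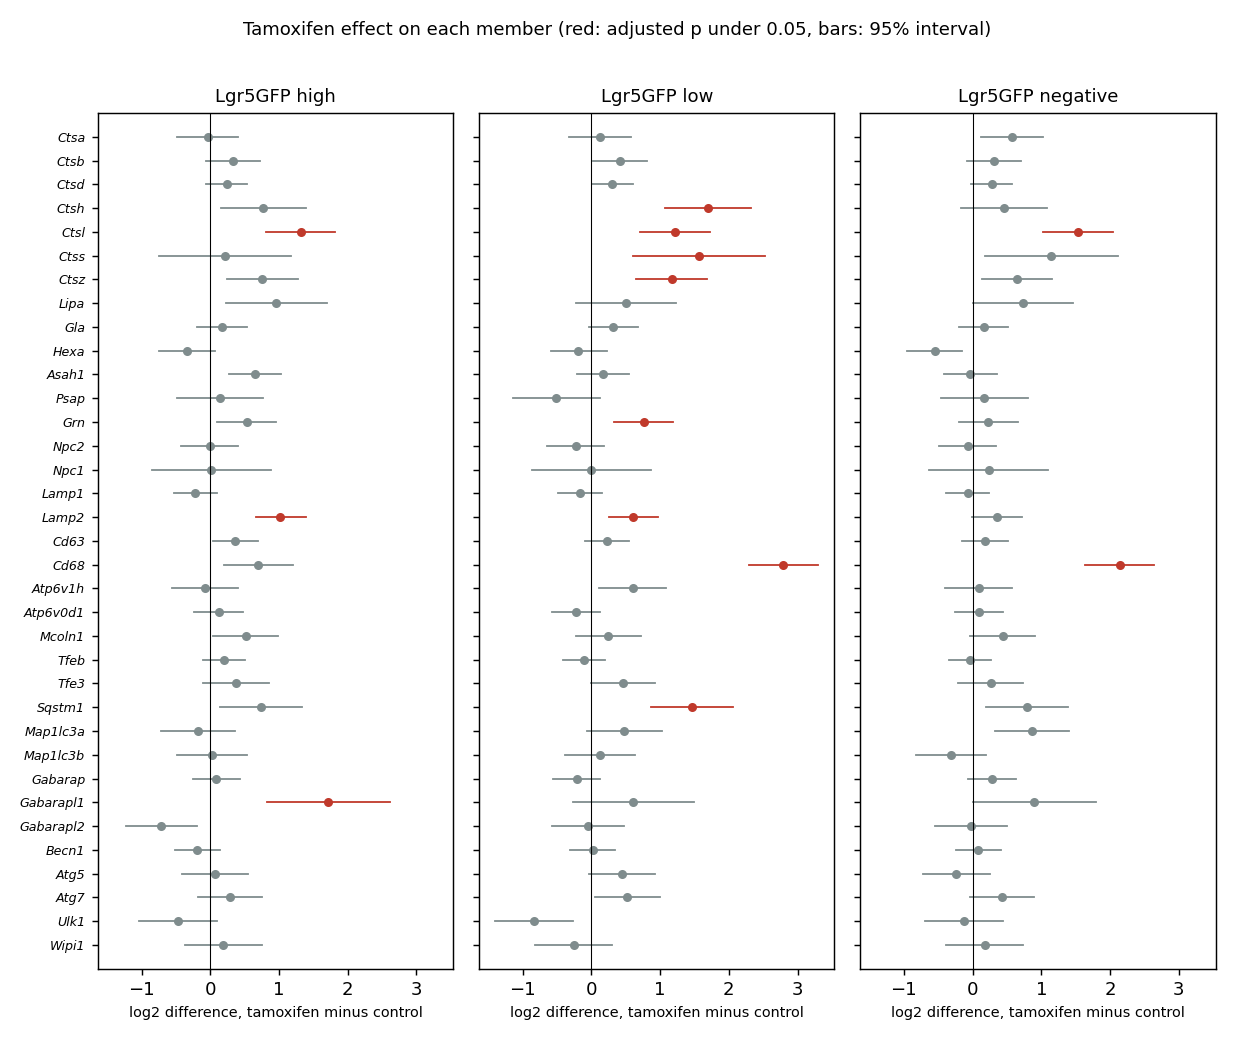
Log2 difference, tamoxifen minus control, of each of the 35 measured genes in Lgr5GFP high, low and negative cells. Points are estimates, bars are 95% intervals from the limma fit, and red marks an adjusted p under 0.05. Ctsl is red in all 3 panels, Cd68 and Lamp2 in 2, and 8 genes are red in low cells, all to the right of 0.

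Among the lysosomal enzymes, Ctsl, a cysteine protease, had levels of 9.48, 9.67, 9.55 and 8.94 on the tamoxifen high arrays, against 7.69, 8.42 and 8.15 on the control high arrays. In low cells its levels were 10.38, 9.93, 9.52 and 9.92 after tamoxifen, against 8.86, 8.99 and 8.33 in controls. In negative cells they were 9.51, 9.91, 9.87 and 9.05 after tamoxifen, against 8.05, 8.12 and 8.0 in controls. Every tamoxifen array thus lay above every control array of its population. The rise was 2.49-fold in high cells (log2 difference 1.32 ± 0.24, SE, adjusted p = 0.0055), 2.32-fold in low cells (1.21 ± 0.24, adjusted p = 0.0032) and 2.89-fold in negative cells (1.53 ± 0.24, adjusted p = 0.0015). All 3 calls were kept when any 1 array was left out.

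Ctsh, a cysteine protease with aminopeptidase activity, had levels of 9.36, 8.95, 8.97 and 9.14 on the tamoxifen low arrays, against 6.78, 7.25 and 8.19 on the control low arrays. The control arrays were far apart, yet all lay below the tamoxifen arrays. The rise was 3.24-fold (1.70 ± 0.30, adjusted p = 0.0011), and the estimate was between 1.38 and 2.09 when any 1 array was left out. In high cells the Ctsh levels were 8.52, 8.19, 7.86 and 7.39 after tamoxifen, against 7.0, 6.78 and 7.86 in controls, and the groups overlapped (0.77 ± 0.30, adjusted p = 0.18). In negative cells Ctsh stood at 8.63, 8.82, 9.20 and 8.61 after tamoxifen, against 8.30, 8.28 and 8.50 in controls (0.46 ± 0.30, adjusted p = 0.6).

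Ctsz, a carboxypeptidase of the same protease family, had levels of 8.44, 8.79, 8.37 and 8.27 on the tamoxifen low arrays, against 7.03, 7.35 and 7.52 on the control low arrays. The groups were well apart and the rise was 2.24-fold (1.17 ± 0.25, adjusted p = 0.0048). Its levels in high cells were 7.92, 7.38, 8.01 and 7.34 after tamoxifen, against 6.11, 7.35 and 7.23 in controls (0.76 ± 0.25, adjusted p = 0.1). In negative cells they were 8.28, 8.35, 8.43 and 7.90 after tamoxifen, against 7.59, 7.60 and 7.59 in controls (0.65 ± 0.25, adjusted p = 0.24). The difference was above 0 in all 3 populations and passed the test in low cells.

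Ctss, a protease best known from antigen-presenting cells, had levels of 6.35, 5.98, 5.98 and 5.26 on the tamoxifen low arrays, against 4.25, 4.73 and 4.03 on the control low arrays. The rise was 2.95-fold (1.56 ± 0.46, adjusted p = 0.039). That call was lost without any 1 of 6 of the 7 arrays, all but tamoxifen low 4, with log2 differences of 1.41 to 1.76 and adjusted p from 0.061 to 0.13. In high cells Ctss lay near background, at 3.87, 4.24, 5.37 and 4.71 after tamoxifen and at 3.53, 4.87 and 4.59 in controls (0.22 ± 0.46, adjusted p = 0.86). In negative cells its levels were 5.94, 6.29, 8.17 and 7.48 after tamoxifen, against 6.16, 5.15 and 6.17 in controls, and the groups overlapped (1.14 ± 0.46, adjusted p = 0.28). Tamoxifen negative 3 and 4 stood above the other arrays of that group.

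The other measured enzymes were not called in any tamoxifen comparison. Ctsd, the major aspartic protease of lysosomes, had levels of 10.37, 10.69, 10.79 and 10.60 on the tamoxifen high arrays, against 10.56, 10.27 and 10.31 on the control high arrays. In low cells Ctsd stood at 10.70, 10.79, 10.57 and 10.40 after tamoxifen, against 10.33, 10.25 and 10.36 in controls, and in negative cells at 10.61, 10.40, 10.59 and 10.26, against 10.31, 10.05 and 10.21. Its log2 differences were 0.24, 0.30 and 0.28 in high, low and negative cells (adjusted p = 0.43, 0.22 and 0.45), and its low groups did not overlap. Ctsb, a further cysteine protease, differed by 0.33, 0.42 and 0.31 in the same order (adjusted p = 0.39, 0.2 and 0.56). Ctsa, a carboxypeptidase that protects other lysosomal enzymes, differed by -0.03, 0.12 and 0.57 (adjusted p = 0.96, 0.81 and 0.23). Lipa, the acid lipase, differed by 0.96, 0.50 and 0.73 (adjusted p = 0.15, 0.46 and 0.41). Asah1, acid ceramidase, differed by 0.65 in high cells, where its groups did not overlap (adjusted p = 0.06), and by 0.17 and -0.03 in low and negative cells. Gla, alpha-galactosidase, differed by 0.17, 0.32 and 0.16 (adjusted p = 0.67, 0.29 and 0.79). Hexa, the alpha subunit of hexosaminidase A, differed by -0.34, -0.19 and -0.55 (adjusted p = 0.4, 0.65 and 0.19), and in negative cells its groups did not overlap. Of the 11 enzymes measured, 9, 10 and 9 had a difference above 0 in high, low and negative cells.

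Among the cofactors, Grn, which encodes progranulin, had levels of 10.31, 10.41, 10.10 and 10.06 on the tamoxifen low arrays, against 9.69, 9.14 and 9.54 on the control low arrays. The groups did not overlap and the rise was 1.70-fold (0.76 ± 0.21, adjusted p = 0.023). The call was lost without tamoxifen low 1, tamoxifen low 2 or control low 2, at log2 differences of 0.60 to 0.73 and adjusted p from 0.065 to 0.15. In high cells Grn stood at 9.88, 10.48, 10.55 and 9.75 after tamoxifen, against 9.87, 9.48 and 9.56 in controls (0.53 ± 0.21, adjusted p = 0.18). In negative cells it stood at 9.51, 9.63, 9.49 and 9.05 after tamoxifen, against 9.40, 8.99 and 9.20 in controls (0.23 ± 0.21, adjusted p = 0.74). Psap, the precursor of the saposins that present sphingolipids to their hydrolases, differed by 0.14, -0.51 and 0.17 in high, low and negative cells (adjusted p = 0.87, 0.36 and 0.88). Npc2, the soluble cholesterol carrier, differed by 0.00, -0.22 and -0.07 (adjusted p = 1, 0.57 and 0.93).

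Among the membrane proteins, Lamp2, which is needed for autophagosomes to mature, had levels of 9.97, 9.85, 9.53 and 9.41 on the tamoxifen high arrays, against 8.26, 8.67 and 9.06 on the control high arrays. The rise was 2.03-fold (1.02 ± 0.17, adjusted p = 0.0029) and was kept when any 1 array was left out. In low cells the Lamp2 levels were 9.77, 9.73, 9.64 and 9.82 after tamoxifen, against 8.99, 9.22 and 9.18 in controls. That rise was 1.53-fold (0.61 ± 0.17, adjusted p = 0.033), and it lost its call without any 1 of 6 of the 7 arrays, all but tamoxifen low 3 (0.54 to 0.66, adjusted p from 0.066 to 0.15). In negative cells they were 9.13, 9.59, 9.39 and 9.23 after tamoxifen, against 8.93, 9.03 and 8.97 in controls, which did not overlap and did not pass the test (0.36 ± 0.17, adjusted p = 0.41). Lamp1, the related and abundant lysosomal glycoprotein, had levels of 10.05, 10.31, 10.19 and 10.12 on the tamoxifen high arrays, against 10.67, 10.27 and 10.21 on the control high arrays. In low cells Lamp1 stood at 10.11, 10.12, 10.16 and 9.88 after tamoxifen, against 10.53, 10.11 and 10.08 in controls, and in negative cells at 10.03, 10.04, 9.99 and 9.85, against 10.27, 9.91 and 9.96. The Lamp1 groups overlapped in all 3 populations, with log2 differences of -0.22, -0.17 and -0.07 adjusted p = 0.5, 0.58 and 0.91, and 95% intervals whose upper ends were 0.10, 0.15 and 0.24 in high, low and negative cells.

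Cd68 had levels of 7.39, 6.98, 6.71 and 6.81 on the tamoxifen low arrays, against 3.85, 4.20 and 4.50 on the control low arrays, whose mean lay at background. The rise was at least 6.62-fold (2.79 ± 0.24, adjusted p = 6.8e-07), where background stands in for the control level. In negative cells the Cd68 levels were 6.91, 7.37, 7.64 and 6.96 after tamoxifen, against 5.19, 4.87 and 5.19 in controls. There the rise was 4.40-fold (2.14 ± 0.24, adjusted p = 4.6e-05), and both calls were kept when any 1 array was left out. In high cells the Cd68 levels were 5.74, 5.58, 6.25 and 5.21 after tamoxifen, against 5.35, 4.71 and 4.91 in controls, with 1 tamoxifen array below the highest control array (0.70 ± 0.24, adjusted p = 0.13). Cd63, a tetraspanin of late endosomes, differed by 0.36, 0.23 and 0.18 in high, low and negative cells (adjusted p = 0.24, 0.45 and 0.72). Npc1, the membrane cholesterol transporter, differed by 0.01, -0.01 and 0.24 (adjusted p = 0.99, 0.99 and 0.88). Its 2 array rows correlated at 0.15 over the arrays, and the brighter one is reported.

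**Figure D2:**
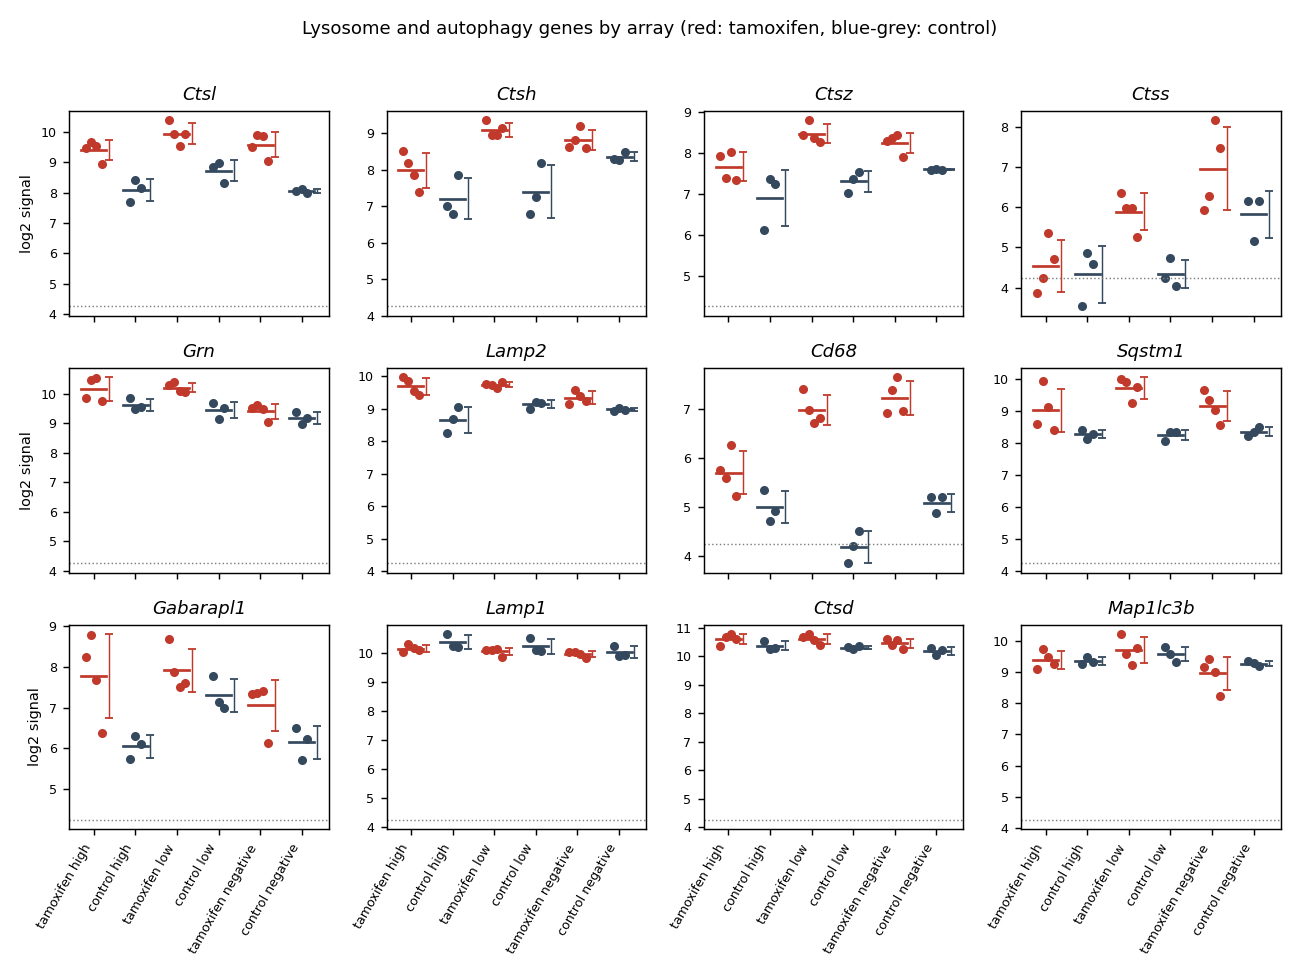
Log2 signal of 12 genes on every array, by group. Points are arrays, the horizontal line is the group mean, the bar beside it is ± 1 SD, and the dotted line marks background (4.25). Tamoxifen arrays of Ctsl lie above the control arrays in each population, those of Cd68 do so in low and negative cells, and Lamp1 arrays overlap throughout.

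Cd68 and Ctss are both used as markers of myeloid cells, so macrophage markers were set beside them. The mean log2 level of 12 macrophage markers was 4.07 to 4.36 on tamoxifen high, 4.34 to 4.48 on tamoxifen low and 4.27 to 5.67 on tamoxifen negative arrays, against 4.10 to 4.24, 4.01 to 4.20 and 4.51 to 4.73 on the matching control arrays. In low cells these ranges did not overlap, and 6 of the 12 markers were above background after tamoxifen, against 5 in controls. Of the 12 differences in low cells, 7 were above 0 and 5 below. The complement gene C1qc was the 1 macrophage marker called in a tamoxifen comparison, in low cells (adjusted p = 0.023), with means of 4.18 after tamoxifen and 3.56 in controls, both under background. Cx3cr1, also on the macrophage list, was lower at 4.75, 4.54, 5.21 and 5.35 on the tamoxifen low arrays, against 5.49, 5.87 and 5.94 on the control low arrays. Ptprc, from the list of other leukocytes, was called lower in low cells, with means of 3.99 after tamoxifen and 6.66 in controls (log2 difference -2.67). It was the 1 marker called there of 5 on that list, of which 1 was above background in tamoxifen low and 2 in control low cells. Lyz2, a lysozyme of myeloid cells, had levels of 5.41, 5.17, 5.09 and 4.48 on the tamoxifen low arrays, against 3.34, 3.34 and 2.79 on the control low arrays, at least 1.73-fold with background in place of the control level, and did not pass the test (adjusted p = 0.072). Tyrobp, a signalling adaptor of myeloid cells, stood at 5.59, 5.65, 5.31 and 4.47 on the tamoxifen low arrays, against 4.38, 4.35 and 4.35 on the control low arrays (0.90 ± 0.41, adjusted p = 0.21). Adgre1, a surface antigen of tissue macrophages, had group means of 3.68 to 4.00, all under background, as was the scavenger receptor Cd163 on every array (2.75 to 3.37). Csf1r, the receptor for macrophage growth factor, was highest on tamoxifen negative 3 and 4, at 5.10 and 5.12, the arrays that were also highest in Ctss. The part of myeloid cells in the Cd68 and Ctss results was not tested.

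**Figure D3:**
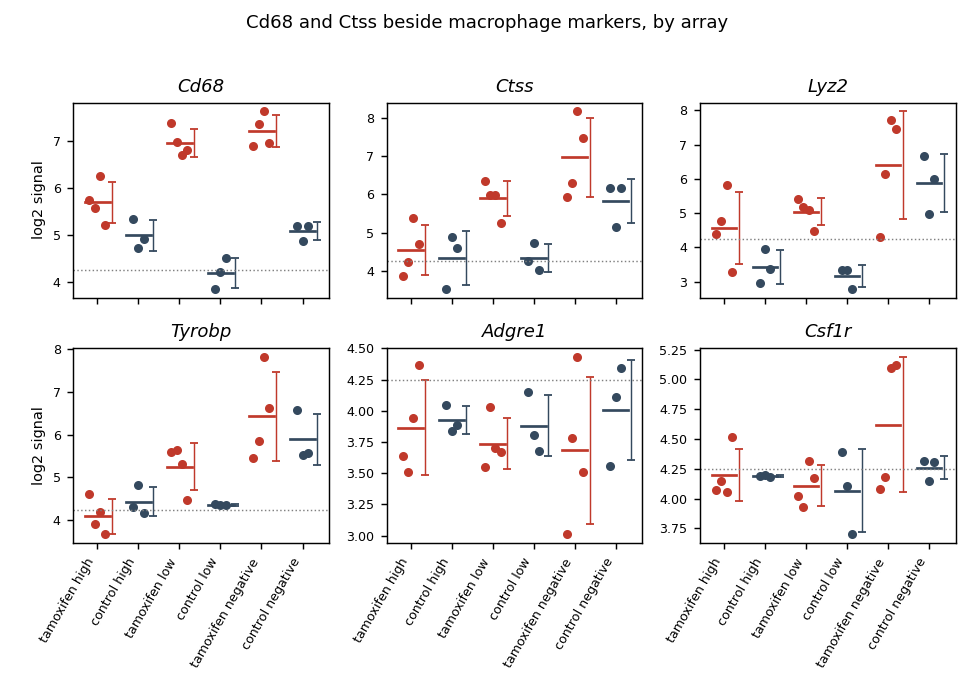
Log2 signal of Cd68, Ctss and 4 macrophage markers on every array, by group, drawn as points with the group mean (line), ± 1 SD (bar) and background (dotted line, 4.25). Cd68 lies well above the control arrays on all tamoxifen low arrays, Lyz2 and Tyrobp do so by less and did not pass the test, and Adgre1 stays near or under background.

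The proton pump subunits on the list were not called after tamoxifen. Atp6v1h differed by -0.08, 0.60 and 0.09 in high, low and negative cells (adjusted p = 0.91, 0.13 and 0.93), and its low groups did not overlap. Atp6v0d1 differed by 0.12, -0.22 and 0.09 (adjusted p = 0.78, 0.5 and 0.89). Mcoln1, the lysosomal calcium channel that activates TFEB, differed by 0.52, 0.24 and 0.44 (adjusted p = 0.25, 0.59 and 0.44).

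Tfeb had levels of 4.34, 4.44, 4.13 and 4.46 on the tamoxifen high arrays, against 4.07, 4.22 and 4.13 on the control high arrays. In low cells Tfeb stood at 4.34, 4.16, 4.22 and 4.37 after tamoxifen, against 4.48, 4.48 and 4.17 in controls, and in negative cells at 4.26, 4.23, 3.71 and 4.22, against 4.07, 4.20 and 4.15. These values lie at background, where a change in the transcript was not detectable. Tfe3, its relative, differed by 0.38, 0.46 and 0.27 in high, low and negative cells (adjusted p = 0.43, 0.25 and 0.71), and its low groups did not overlap. Both proteins are controlled largely by where they are in the cell, which an array of RNA does not measure.

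Among the autophagy genes, Sqstm1, which encodes the cargo receptor p62, had levels of 9.98, 9.89, 9.23 and 9.74 on the tamoxifen low arrays, against 8.07, 8.35 and 8.33 on the control low arrays. The rise was 2.75-fold (1.46 ± 0.29, adjusted p = 0.0028) and was kept when any 1 array was left out. In high cells Sqstm1 stood at 8.58, 9.93, 9.11 and 8.41 after tamoxifen, against 8.40, 8.13 and 8.28 in controls, and in negative cells at 9.65, 9.33, 9.02 and 8.55, against 8.20, 8.35 and 8.49. Neither pair of groups overlapped and neither passed the test (0.74 ± 0.29, adjusted p = 0.18, in high cells and 0.79 ± 0.29, adjusted p = 0.22, in negative cells). Gabarapl1, a member of the LC3 family, had levels of 8.24, 8.78, 7.68 and 6.38 on the tamoxifen high arrays, against 5.75, 6.30 and 6.11 on the control high arrays. Its lowest tamoxifen array was just above the highest control array, and the rise was 3.29-fold (1.72 ± 0.43, adjusted p = 0.033). The call was lost without tamoxifen high 1, tamoxifen high 2 or any of the 3 control high arrays, at log2 differences of 1.38 to 1.84 and adjusted p from 0.07 to 0.14. In low cells Gabarapl1 stood at 8.67, 7.86, 7.50 and 7.60 after tamoxifen, against 7.76, 7.14 and 6.99 in controls (0.61 ± 0.43, adjusted p = 0.45). In negative cells it stood at 7.32, 7.35, 7.40 and 6.13 after tamoxifen, against 6.50, 5.71 and 6.23 in controls (0.90 ± 0.43, adjusted p = 0.39).

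Map1lc3b, the LC3 protein used as the standard marker of autophagosomes, had levels of 9.11, 9.76, 9.48 and 9.25 on the tamoxifen high arrays, against 9.26, 9.5 and 9.34 on the control high arrays. In low cells it stood at 10.23, 9.59, 9.22 and 9.78 after tamoxifen, against 9.80, 9.60 and 9.34 in controls, and in negative cells at 9.18, 9.44, 9.02 and 8.22, against 9.36, 9.28 and 9.19. The groups overlapped in all 3 populations, with log2 differences of 0.03, 0.13 and -0.31 (adjusted p = 0.97, 0.82 and 0.69). Map1lc3a, its relative, differed by -0.18, 0.48 and 0.87 in high, low and negative cells (adjusted p = 0.79, 0.3 and 0.092), and its negative groups did not overlap. Gabarap and Gabarapl2, of the same family, differed by 0.09 and -0.71 in high cells (adjusted p = 0.83 and 0.14), by -0.21 and -0.05 in low cells and by 0.29 and -0.02 in negative cells. Of the genes that start autophagy, the kinase Ulk1 differed by -0.47, -0.84 and -0.12 in high, low and negative cells (adjusted p = 0.41, 0.062 and 0.91). Its low groups did not overlap, and after cyclic loess its difference in low cells was -0.97 (adjusted p = 0.025). Ulk1 was also called lower in the limma fit of the low groups alone (adjusted p = 0.042). Becn1, a subunit of the lipid kinase complex that marks the growing membrane, differed by -0.19, 0.02 and 0.08 (adjusted p = 0.59, 0.96 and 0.9). Wipi1, which reads that lipid mark, differed by 0.19, -0.26 and 0.18 (adjusted p = 0.78, 0.65 and 0.86). Atg5, part of the LC3 conjugation complex, differed by 0.07, 0.45 and -0.24 (adjusted p = 0.92, 0.28 and 0.76), and Atg7, the enzyme that activates LC3 for conjugation, by 0.29, 0.52 and 0.43 (adjusted p = 0.56, 0.18 and 0.46). Of the 11 autophagy genes, 1, 1 and 0 were called in high, low and negative cells.

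Interaction terms tested whether the tamoxifen difference itself differed between populations. None of the 35 genes was called for high minus negative cells, where 0.248% of all genes were called. An unadjusted p under 0.05 was found for 4 of the 35 and for 1794 of all 22180 genes. None was called for low minus negative cells, where 0.839% of all genes were called, and 3 of the 35 had an unadjusted p under 0.05, beside 2048 of all 22180. For high minus low cells 1 gene was called, Cd68, where 0.0271% of all genes were called. The Cd68 difference was 0.70 in high cells and 2.79 in low cells, and the interaction was -2.09 ± 0.34 (adjusted p = 0.021). That call was lost without tamoxifen high 2, tamoxifen low 1, tamoxifen low 2, control high 1, control low 1 or control low 2 (-2.10 to -1.91, adjusted p from 0.052 to 0.10). It was also lost in a fit on the 4 groups compared (adjusted p = 0.083). For high minus negative cells the Cd68 interaction was -1.44 ± 0.34 (adjusted p = 0.088), and it was called without tamoxifen high 3 (-1.62, adjusted p = 0.046) or tamoxifen negative 4 (-1.52, adjusted p = 0.038). Ctsl had interactions of -0.21, -0.32 and 0.10 for high minus negative, low minus negative and high minus low (SE 0.34 each, adjusted p = 0.97, 0.9 and 1). Ctsh, called in low cells, had an interaction of 1.24 ± 0.42 for low minus negative cells (adjusted p = 0.26), so a difference between these populations was not shown.

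In control mice, Lgr5GFP high cells had 4 of the 35 genes higher and 1 lower than negative cells. The higher ones were Ctsa, Gabarap, Map1lc3a and Ulk1, and the lower one was Ctsh. Of all genes, 4.64% were called higher and 7.66% lower. Lgr5GFP low cells had 3 genes higher than negative cells, Ctsa, Gabarap and Ulk1, and 1 lower, Cd68. Of all genes, 1.85% were called higher and 3.41% lower in that comparison. Both comparisons use the same 3 control negative arrays. Between high and low control cells none of the 35 genes was called, and 1.34% of all genes were called either way. There 6 of the 35 had an unadjusted p under 0.05, beside 2330 of all 22180 genes. The median log2 differences of the 35 genes were 0.01, 0.19 and -0.05 for high against negative, low against negative and high against low, beside 0.04, 0.03 and 0.00 over all genes. With the spread estimated from the groups compared alone, 8 genes were called for high against negative cells (5 higher and 3 lower) and 8 for low against negative cells (6 higher and 2 lower). When 1 array was left out, the count for high against negative cells was 2 without control high 1 or control negative 3, and 3 without control high 3 or control negative 1. For low against negative cells it was 1 without control low 1, control low 2, control negative 2 or control negative 3, and 2 without control negative 1.

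Ctsa had levels of 9.68, 9.23 and 9.23 on the control high arrays and 9.30, 8.83 and 8.73 on the control low arrays, against 8.41, 7.83 and 8.13 on the control negative arrays. Both sorted Lgr5GFP positive groups lay above the negative arrays. Ctsa was 2.39-fold higher in high cells (1.25 ± 0.23, adjusted p = 0.00075) and 1.78-fold higher in low cells (0.83 ± 0.23, adjusted p = 0.037). The call in low cells was lost without control low 1, control low 2, control negative 2 or control negative 3 (0.66 to 0.89, adjusted p from 0.079 to 0.23). Gabarap, an LC3 family member, had levels of 11.50, 11.34 and 11.19 on the control high arrays and 11.39, 11.22 and 11.06 on the control low arrays, against 10.49, 10.27 and 10.34 on the control negative arrays. It was 1.96-fold higher in high cells (0.97 ± 0.18, adjusted p = 0.00071) and 1.81-fold higher in low cells (0.86 ± 0.18, adjusted p = 0.006). Both Gabarap calls were kept when any 1 array was left out.

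Ulk1 had levels of 7.72, 8.18 and 7.83 on the control high arrays and 8.27, 8.06 and 7.73 on the control low arrays, against 7.19, 6.82 and 6.83 on the control negative arrays. It was 1.95-fold higher in high cells (0.96 ± 0.29, adjusted p = 0.032) and 2.10-fold higher in low cells (1.07 ± 0.29, adjusted p = 0.033). The call in high cells was lost without any control high array, control negative 2 or control negative 3 (0.82 to 1.06, adjusted p from 0.053 to 0.14). In low cells it was lost without control low 1, control low 2 or any control negative array (0.95 to 1.19, adjusted p from 0.06 to 0.17). Map1lc3a stood at 5.51, 5.35 and 5.72 on the control high arrays, against 4.65, 4.40 and 4.72 on the control negative arrays, close to background. It was 1.91-fold higher (0.94 ± 0.28, adjusted p = 0.028), and the call was lost without control high 1, control high 3 or any control negative array (0.84 to 1.00, adjusted p from 0.057 to 0.11).

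Ctsh had levels of 7.0, 6.78 and 7.86 on the control high arrays, against 8.30, 8.28 and 8.50 on the control negative arrays. It was 2.21-fold lower in high cells (-1.14 ± 0.32, adjusted p = 0.02), and the call was lost without control high 1, control high 2, control negative 1 or control negative 3 (-1.18 to -0.93, adjusted p from 0.052 to 0.12). In low cells Ctsh differed by -0.95 ± 0.32 (adjusted p = 0.099), and with the number in the titles as a block, which paired the control low and negative arrays, it was called lower (adjusted p = 0.03). Cd68 was at least 1.79-fold lower in control low cells than in control negative cells (-0.90 ± 0.26, adjusted p = 0.047), at the array values given above, and with that block it was not called (adjusted p = 0.051). That call was lost without control low 1, control low 2 or any control negative array (-1.01 to -0.73, adjusted p from 0.072 to 0.26). Lyz2, whose means in control high and low cells lay under background, was at least 3.11-fold lower in each than in control negative cells (adjusted p = 0.018 and 0.02). Tyrobp was lower as well, by -1.45 ± 0.44 in control high cells (adjusted p = 0.033) and -1.53 ± 0.44 in control low cells (adjusted p = 0.047). The mucins and secreted proteins that mark surface pit cells, 4 of 4 measured, were also lower in high and in low cells than in negative cells. Mast cell markers were lower for 4 of 6 in both, endocrine markers for 5 of 6 and parietal markers for 3 of 8 in high cells. Kit, on the mast cell list, was called higher in high than in negative cells, with means of 9.11 and 6.38 (log2 difference 2.72). Tuft cell markers were higher for 4 of 5 in high and 2 of 5 in low cells, chief cell markers for 4 of 7 in both and parietal markers for 2 of 8 in low cells. The chief cell marker Pga5 was called lower in high than in negative cells, with means of 9.26 and 11.19 (log2 difference -1.93). The part of these cells in the differences between control populations was not tested.

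**Figure D4:**
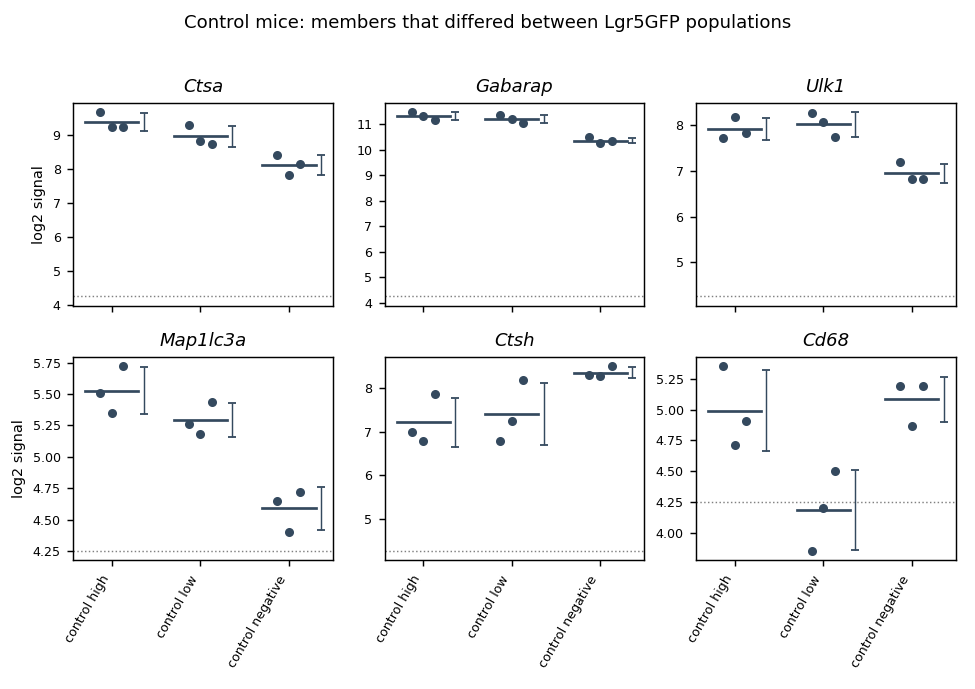
Log2 signal of the 6 genes called between control populations, on each control array. Points are arrays, lines are group means, bars are ± 1 SD, and the dotted line marks background (4.25). Ctsa, Gabarap, Ulk1 and Map1lc3a lie lowest in negative cells, and Ctsh lies highest there.

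Other genes of the same pathway were counted from a list of 128, of which 120 were measured. In high cells 3 of the 120 rose after tamoxifen and 1 fell, in low cells 9 rose and 4 fell, and in negative cells 1 rose and 0 fell. These are 2.5%, 7.5% and 0.833% of the list called higher, beside 1.7%, 5.35% and 1.62% of all genes, and 0.833%, 3.33% and 0% called lower, beside 1.04%, 2.98% and 0.703% of all genes. After cyclic loess the split in low cells was 8 higher and 8 lower. Atp6v0d2, an alternative subunit of the proton pump known from osteoclasts and macrophages, rose in all 3 populations. Its levels were 6.70, 4.20, 5.87 and 3.88 on the tamoxifen high arrays, against 2.98, 2.79 and 2.63 on the control high arrays. In low cells they were 6.48, 6.78, 5.58 and 7.48 after tamoxifen, against 3.09, 2.81 and 3.73 in controls, and in negative cells 6.95, 6.66, 7.41 and 5.98, against 4.73, 3.43 and 3.50. Control means lay under background, so the rises were at least 1.89-fold, 5.05-fold and 5.68-fold in high, low and negative cells (2.36, 3.37 and 2.87 ± 0.55 each, adjusted p = 0.023, 5e-04 and 0.0062). The tamoxifen high arrays were widely spread, with 2 of 4 under background, and the call in high cells was lost without tamoxifen high 1, tamoxifen high 3 or any control high array. Vmp1, a membrane protein of the forming autophagosome, rose 1.81-fold in high cells (0.86 ± 0.21, adjusted p = 0.034) and 1.74-fold in low cells (0.80 ± 0.21, adjusted p = 0.022). Its call was lost in high cells without tamoxifen high 1, tamoxifen high 2 or any control high array, and in low cells without tamoxifen low 4, control low 1 or control low 3. Atp6v0e, another pump subunit, rose 1.70-fold in high cells (0.76 ± 0.15, adjusted p = 0.0098), a call lost without control high 1 (adjusted p = 0.06).

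In low cells the sorting receptor M6pr, which carries new enzymes to the lysosome, stood at 8.93, 8.82, 8.88 and 8.78 after tamoxifen, against 8.24, 7.93 and 8.38 in controls, a 1.59-fold rise (0.67 ± 0.13, adjusted p = 0.0018). The lysosomal membrane protein Tmem192 rose 2.02-fold (1.01 ± 0.24, adjusted p = 0.011), and the pump subunit Tcirg1 rose 1.86-fold (0.89 ± 0.21, adjusted p = 0.011), and both calls were lost without control low 1 (adjusted p = 0.058 and 0.067). Sort1, which encodes the alternative sorting receptor sortilin, moved the other way. Its levels in low cells were 7.96, 8.40, 8.58 and 8.22 after tamoxifen, against 9.86, 9.20 and 9.58 in controls, a 2.39-fold fall (-1.26 ± 0.23, adjusted p = 0.0013). Gm2a, the activator protein for ganglioside breakdown, fell in high cells, at 5.95, 6.38, 6.52 and 5.74 after tamoxifen, against 6.79, 7.19 and 7.37 in controls (-0.97 ± 0.24, adjusted p = 0.031), a call that did not hold when control high 2, control high 3 or tamoxifen high 1 was left out. It also fell in low cells, at 6.93, 6.86, 7.19 and 6.29 after tamoxifen, against 8.45, 7.89 and 8.02 in controls (-1.30 ± 0.24, adjusted p = 0.0015). Atp6ap2, a pump accessory protein, fell 1.74-fold (-0.80 ± 0.22, adjusted p = 0.025) and Man2b1, lysosomal alpha-mannosidase, fell 1.68-fold (-0.75 ± 0.21, adjusted p = 0.029), both in low cells. The Atp6ap2 call was lost without tamoxifen low 2, tamoxifen low 3, control low 1 or control low 2, and the Man2b1 call without tamoxifen low 1, 3 or 4 or control low 1. The calls of M6pr, Sort1 and Gm2a in low cells, and of Atp6v0d2 in low and negative cells, were kept when any 1 array was left out. The interaction of Gm2a, low minus negative, was -1.42 ± 0.34 (adjusted p = 0.049) and lost its call without any 1 of 12 of the 14 arrays, all but tamoxifen low 3 and tamoxifen negative 4 (-1.57 to -1.25). No other of the 120 was called in an interaction. An unadjusted p under 0.05 was found for 11, 14 and 11 of the 120 for high minus negative, low minus negative and high minus low cells. Over all 22180 genes it was found for 1794, 2048 and 1499 in the same order.

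**Figure D5:**
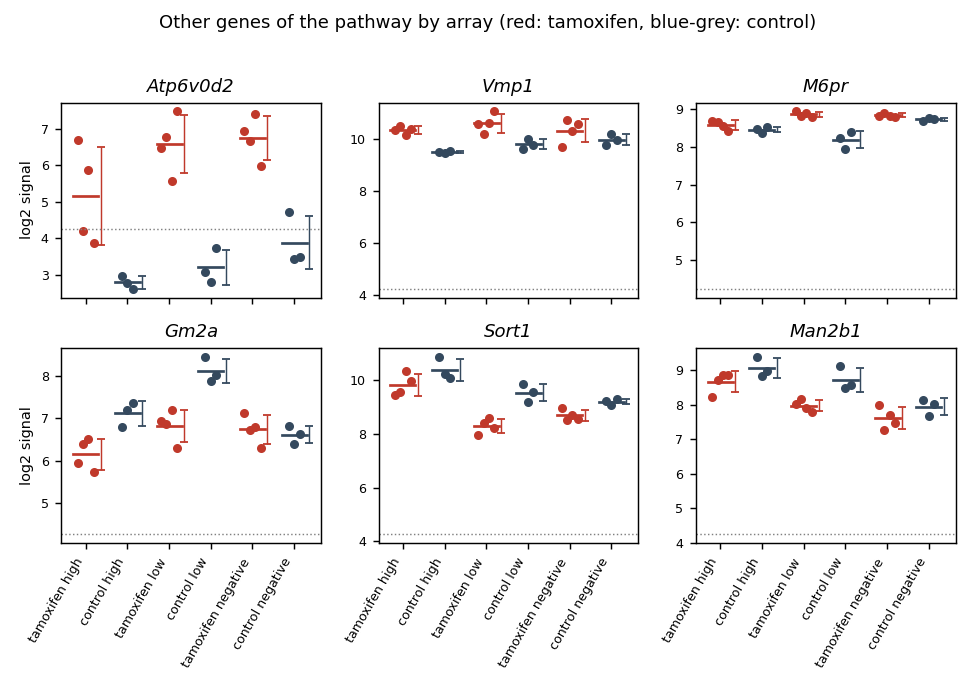
Log2 signal of 6 other lysosome and autophagy genes on every array, by group, drawn as points with the group mean (line), ± 1 SD (bar) and background (dotted line, 4.25). Atp6v0d2, Vmp1 and M6pr lie higher on the tamoxifen low arrays than on the control low arrays, and Gm2a, Sort1 and Man2b1 lie lower.

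Between control populations, 8 of the 120 were higher and 5 lower in high than in negative cells, which is 6.67% and 4.17%, beside 4.64% and 7.66% of all genes. In low against negative cells 2 were higher and 1 lower, which is 1.67% and 0.833%, beside 1.85% and 3.41% of all genes. After cyclic loess these splits were 12 higher and 3 lower, and 4 higher and 1 lower. With the title number as a block, 5 were called in low against negative cells (3 higher and 2 lower) and 4 in high against low cells (2 higher and 2 lower). In high against negative cells that block lost the call of Arsb and added Atg9a, Ddit4, Naglu, Rragd and Tax1bp1 as higher. Ctsc, a protease that activates granule enzymes of immune cells, had levels of 9.94, 9.99 and 9.05 on the control high arrays and 8.61, 7.85 and 7.75 on the control low arrays, against 7.96, 7.41 and 7.52 on the control negative arrays. It was 4.08-fold higher in high than in negative cells (2.03 ± 0.32, adjusted p = 0.00023) and 3.01-fold higher in high than in low cells (1.59 ± 0.32, adjusted p = 0.015), the 1 gene of the 120 called in that last comparison without the block. The call against low cells was lost without control high 1, control high 2, control low 2 or control low 3 (adjusted p of at most 0.12). Man2b1, the pump accessory protein Atp6ap1 and Sort1 were also higher in high than in negative cells, by 1.11 ± 0.22, 0.79 ± 0.16 and 1.19 ± 0.24 (adjusted p = 0.0017, 0.0018 and 0.0019), and these calls and that of Ctsc against negative cells were kept when any 1 array was left out. Stx17, the syntaxin by which autophagosomes fuse with lysosomes, differed by -1.06 ± 0.24 (adjusted p = 0.0046) and Tmem41b, a lipid scramblase of autophagosome formation, by -0.60 ± 0.15 (adjusted p = 0.0081), which lost its call without control high 1 (adjusted p = 0.065). The aspartic protease Ctse, abundant in surface mucous cells, differed by -1.58 ± 0.43 (adjusted p = 0.016), although control high 3 overlapped the negative arrays, and the call was lost without control high 1, control high 2, control negative 1 or control negative 3. Gnptab, which makes the mannose 6-phosphate tag on lysosomal enzymes, differed by -1.07 ± 0.29 (adjusted p = 0.018), a call lost without control high 2, control negative 1 or control negative 3. In low against negative cells, Gm2a and Man2b1 were higher (1.5 ± 0.25, adjusted p = 0.0014, and 0.77 ± 0.22, adjusted p = 0.047) and M6pr was lower (-0.54 ± 0.13, adjusted p = 0.021). The Gm2a call was kept when any 1 array was left out, that of Man2b1 was lost without any 1 of the 6 arrays, and that of M6pr without any 1 of them but control low 3. The median log2 difference of the 120 genes was 0.13, 0.13 and 0.11 after tamoxifen in high, low and negative cells.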

How the data were processed

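RNA was measured on microarrays after cDNA amplification and biotin labelling, per the labels. The authors deposited log2 signal per probe set, and the tools that the submitters' processing notes name, without saying in which step, are oligo, RMA, R 3.2.3 and limma 3.26.8. Values ran from 0.958 to 13.55. The platform annotation covers 25335 of 41345 probe sets, of which 23521 name 1 gene and 1814 several. Symbols were updated by gene number for 23328, which left 22180 genes.

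Group means were fitted over all 21 arrays with limma 3.58.1 (lmFit, eBayes) in R 4.3.3, with 15 residual and 5.27 prior degrees of freedom. The 9 comparisons were two-sided and adjusted over all genes (Benjamini-Hochberg), and a gene was called at an adjusted p under 0.05. The fit was tested on simulated data. Where 1 group's mean was at or under 4.25, the fold was computed against 4.25. The number of arrays limits the precision.

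The genes, lists and naming rules were chosen with earlier results of these data known. Values on every array are given for genes called after tamoxifen, 6 called between control populations and a panel of 8 (Tfeb, Lamp1, Lamp2, Sqstm1, Map1lc3b, Ctsl, Ctsd, Cd68), and of the pathway list up to 4 called genes each way are described per comparison. Markers of 12 lists, including chief, parietal, mucous neck, surface pit, tuft, endocrine and mast cells, macrophages, other leukocytes, fibroblasts and endothelial cells and Lgr5, served for the checks. The alternatives tried were cyclic loess, averaging each gene's probe sets, a trended and robust eBayes, a fit of the compared groups alone, dropping the dimmest 25% of genes, blocks, and dropping each array in turn. Dropping arrays and the title number block for the pathway list were chosen after seeing the data. The number in the titles is shared between populations of a treatment. Deviations from group means correlated above 0.1 in all 3 same-numbered pairs of control high and low arrays (0.222 to 0.317) and of control low and negative arrays (0.107 to 0.233), and in 2 of 3 pairs of control high and negative arrays (0.092 to 0.172). In tamoxifen cells this held for 3 of 10 pairs, so the number was taken to pair only the control low arrays with the others.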

Additional observations from a re-analysis of the deposited data

Results flagged for a closer look

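In the 3 groups with 4 arrays, 105 pairs of gene and group were examined for a single array far from the others (Dixon's ratio above its 95% critical value), and 8 stood out. Chance alone marks about 1 in 20 groups. In tamoxifen high cells, array 4 had Npc2 at 8.31, where the others lay at 8.79 to 8.87, and Atg5 at 5.83, where the others lay at 6.87 to 7.02. In tamoxifen negative cells, array 1 had Hexa at 7.04 (others 7.65 to 7.72) and Tfe3 at 6.47 (others 5.84 to 5.93). Array 3 had Tfeb at 3.71 (others 4.22 to 4.26), all at or under background. Array 4 had Mcoln1 at 6.36 (others 6.82 to 6.85), Gabarap at 10.22 (others 10.76 to 10.86) and Gabarapl1 at 6.13 (others 7.32 to 7.40). The tamoxifen difference of Cd68 was smaller in high than in low cells, with an interaction of -2.09 (limma adjusted p = 0.021), and the cause was not tested.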

How the results depend on the processing

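Of 23 called results for single genes, 10 kept their call in every setting and 17 in every setting other than leaving out an array, and none changed sign. With only the groups compared in the fit, the count of called genes was 0 for tamoxifen against control in high cells (Ctsl, Lamp2 and Gabarapl1 at limma adjusted p = 0.13, 0.2 and 0.27), 8 for high against negative control cells, 8 for low against negative control cells and 0 for the high minus low interaction. Over all genes that fit called 12, 3576, 1807 and 5 in these comparisons, against 606, 2728, 1168 and 6 with all arrays, and the cause was not tested. For tamoxifen against control the same fit called 10 of the 35 genes in low cells, Ulk1 among them as lower, and 2 in negative cells. When 1 array was left out, the counts ran from 2 to 9 for tamoxifen against control in high cells, 5 to 7 in low cells and 2 to 3 in negative cells. They ran from 2 to 5 for high against negative, 1 to 5 for low against negative and 0 to 0 for high against low control cells, and from 0 to 1, 0 to 0 and 0 to 1 for the high minus negative, low minus negative and high minus low interactions. Under cyclic loess the pathway list had 5, 2 and 2 called genes for low against negative control cells, high against low control cells (1 higher and 1 lower) and the low minus negative interaction. With trend and robust estimation Cd68 was no longer called in low against negative control cells (adjusted p = 0.056). Averaging each gene's probe sets, or leaving out the dimmest 25% of genes, lost no call. Of 48 pairs of arrays with the same replicate number, 18 had a correlation of deviations above 0.1. Among the 48, 27 pairs joined tamoxifen and control arrays, and 6 of those were above 0.1. Over all arrays the replicate number was not taken to pair the samples. In control arrays it gives the same pairs as the number in the titles, which paired control low arrays with control high and control negative arrays. With the replicate number as a replicate block, 6 genes were called for tamoxifen against control in high cells and no call was lost. With the title number as a replicate block, 0 were called for the high minus low interaction (Cd68 adjusted p = 0.062), Ctss was called lower in control high than in control negative cells (-1.5, adjusted p = 0.044), Ctsh was gained and Cd68 lost in control low against negative cells, and no other call among the 35 genes changed. In the pathway list that block gave 5 calls for low against negative control cells, 4 for high against low control cells and 0 for the low minus negative interaction (Gm2a adjusted p = 0.11). For high against negative control cells, Arsb lost its call and Atg9a, Ddit4, Naglu, Rragd and Tax1bp1 gained one. In the pathway list, 11 of 36 calls were kept when any 1 array was left out, an alternative added after seeing the data. As a random block for the tamoxifen comparisons the title number had a consensus correlation of 0.075 and changed no call. Apart from the 4 comparisons named above, counts over all genes in the other settings are not given here. Changes in the counts of the 35 genes or the pathway list are therefore not read as particular to these genes.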
